A study of Macaca fascicularis with 12 samples.

Results

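Genes of the interferon response and of class I antigen presentation were followed across iliac arteries of cynomolgus monkeys (Macaca fascicularis) that carried small, medium or large atherosclerotic plaques. The module comprised 41 genes, taken by gene symbol. It held 29 genes of the type I interferon response and 12 genes of antigen presentation and the type II response. A gene was represented by its brightest probe with a value on every array, among probes that the platform annotation assigns to 1 symbol. In this way 36 of the 41 members were measured, out of 18080 named genes, with 25 in the type I arm and 11 in the presentation and type II arm. IFITM2, ISG15, STAT2 and TAP2 had no such probe and the probe of OASL was empty, so these 5 genes were not analysed here.

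Interferons are secreted proteins that warn cells of infection. Type I interferons signal through IFNAR1 and IFNAR2 to a transcription complex that contains IRF9 and turns on antiviral effector genes. Interferon gamma, the type II interferon made by T and NK cells, signals through IFNGR1 and IFNGR2. It raises the guanylate binding proteins and the parts of the class I pathway: the immunoproteasome that cuts proteins to peptides, the TAP transporter that brings the peptides into the endoplasmic reticulum, and the heavy chains with beta-2 microglobulin that show them at the cell surface. In atherosclerotic plaques, macrophages and T cells are known sources and targets of interferon signals.

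All 12 animals were untreated females over 20 years of age that had eaten a high fat diet for 8 years and lacked ovaries for 4 years after surgery, so the groups shared diet and hormone state and differed in plaque area. The small group had 4 animals with areas of 0 to 0.113 mm2, of which 2 had no plaque and were entered at 0. The medium group had 5 animals at 0.30 to 0.542 mm2 and the large group 3 animals at 0.61 to 1.003 mm2. RNA from 1 artery biopsy per animal was hybridized to 1 single-colour CodeLink array of human probes, so replicates were separate animals. Small replicate 4 and medium replicate 5 carry identity numbers apart from the rest, and without both of them the medium count of called members given below was 3. The whole artery wall was sampled, so more cells of a type and more RNA per cell cannot be told apart. Human probes can bind monkey RNA less well, so each difference compares animals on 1 probe.

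Intensities were on a linear scale on which the median probe of each array lay near 1 (1.00 to 1.01). Each array gave a value for 53832 to 53867 probes. Of the 36 measured members, 10 lay below 1 on every array, and 5 had at least 1 value under 0.111, the floor to which low values were raised before log2 was taken. Across probes, the median correlation between arrays within a group was 0.947 to 0.967, and no array was a duplicate of another. Small replicate 1, the artery with the largest plaque of its group, had the highest 99th percentile of intensity, 195.8. Of 6 measured smooth muscle markers, which define the tissue, ACTA2 ran from 169 to 667 over the arrays and CNN1 was dim, at 0.343 to 2.28. Their summed intensity was 1398 to 2202 in small, 665 to 1233 in medium and 857 to 1304 in large plaques. Differences below are log2 differences with their standard error (SE) from limma, and a gene was called when its p, adjusted over all 53877 tested probes by Benjamini-Hochberg, was under 0.05.

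In medium against small plaques, 6 of the 36 members rose and none fell. The 6 were IFI30, TRIM22, ISG20, SP110, PSMB10 and IFI44L. They made up 16.7% of the members, while 3.14% of all tested probes were called in either direction, 1.97% as higher and 1.17% as lower. Among the 18080 named genes 651 rose and 290 fell, or 3.6% and 1.6%. The median difference was 0.29 over the members, with 26 of 36 positive, and -0.03 over the named genes. In large against small plaques IFI30, TRIM22 and PSMB10 rose and none fell, which is 8.33% of the members. Of all probes 1.15% were called, and of the named genes 1.91% rose and 0.254% fell. The median difference in large plaques was 0.31 over the members, with 24 of 36 positive, and -0.05 over the named genes. Both comparisons use the same 4 small arteries. The medium count was 3 without medium replicate 1. The large count was 1 without large replicate 1, large replicate 3 or small replicate 2, and 6 without small replicate 1.

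**Figure D1:**
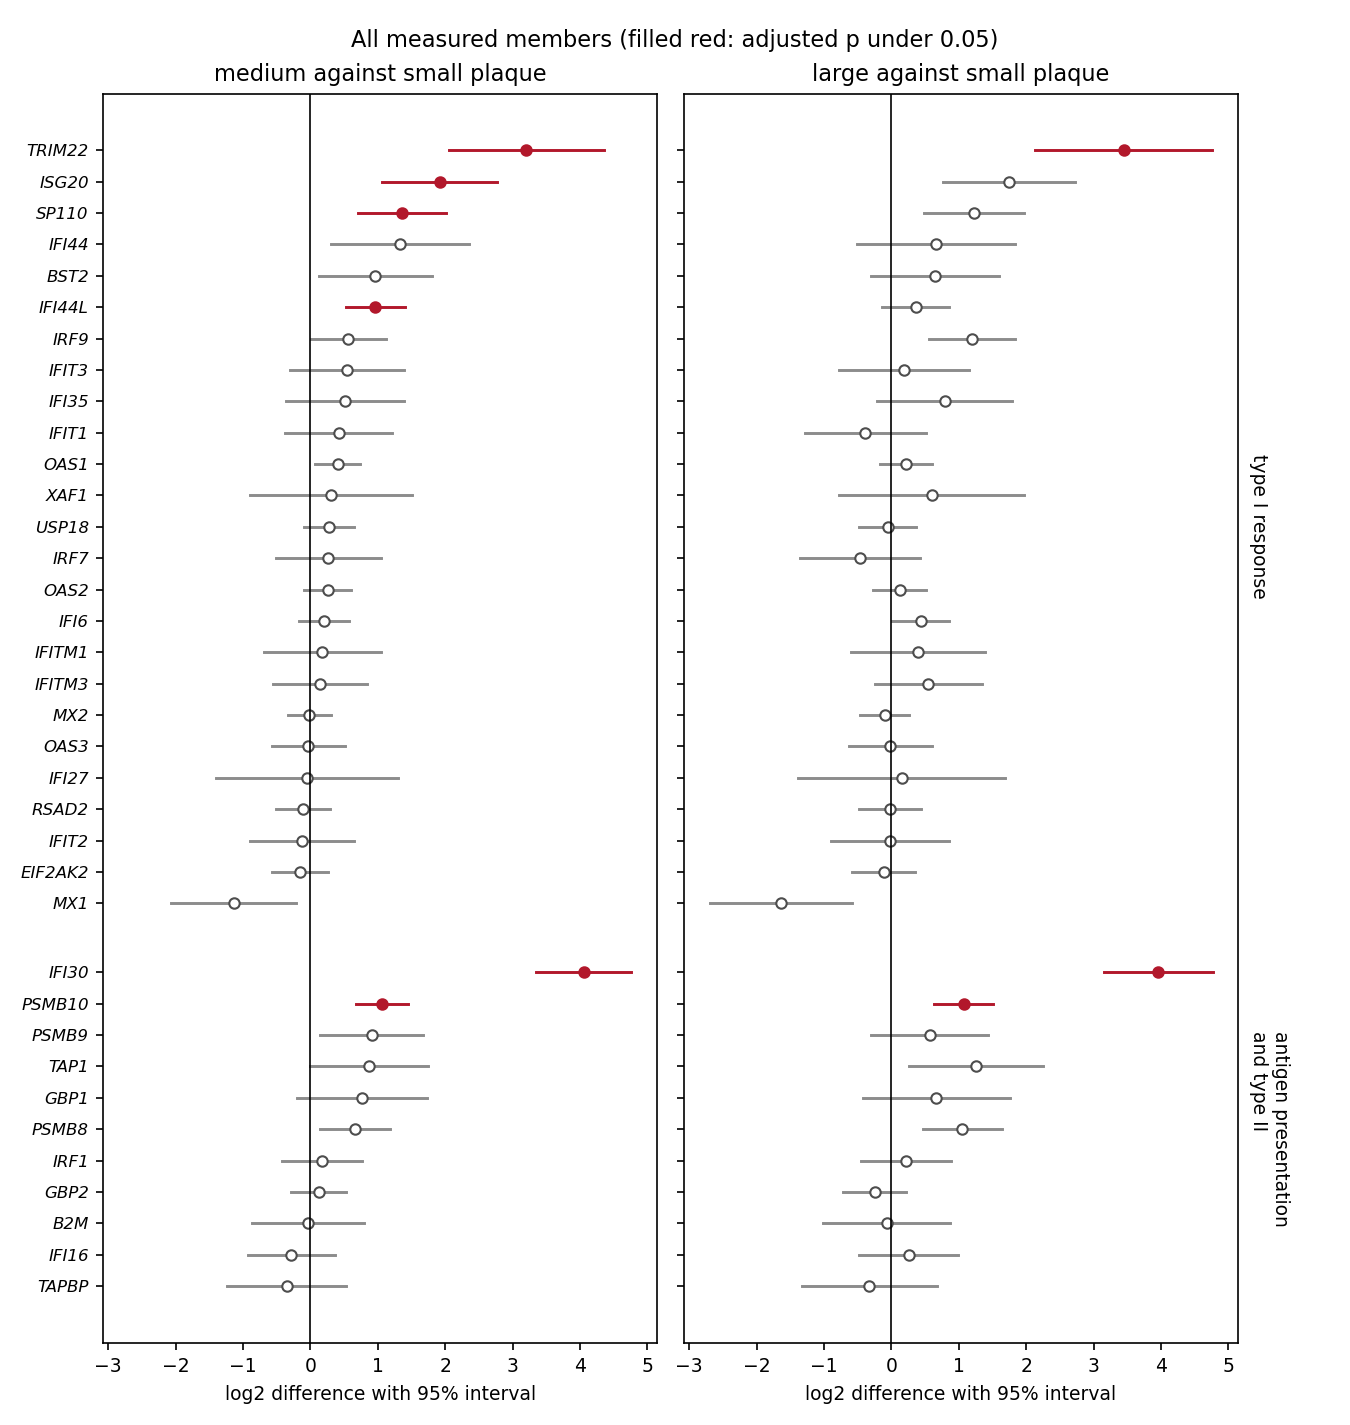
Log2 difference of the 36 measured members in medium against small and in large against small plaques, split by arm and ordered by the medium difference, with 95% confidence intervals. Filled points mark members called at an adjusted p under 0.05, which were 6 in medium and 3 in large, all to the right of 0.

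The arms were described side by side, without a test between them. Of the 25 type I genes, 4 rose in medium plaques, 18 differences were positive, and the median was 0.27 with a range of -1.14 to 3.20. Of the 11 presentation and type II genes, 2 rose, 8 were positive, and the median was 0.66 with a range of -0.35 to 4.05. In large against small plaques the type I arm had 1 called gene and a median of 0.22, and the presentation arm had 2 and a median of 0.57. Among the named genes 3.6% rose and 1.6% fell in medium plaques, and 1.91% rose and 0.254% fell in large ones. Their medians were -0.03 and -0.05. Of all tested probes 1.97% rose in medium and 0.948% in large plaques. The presentation medians depended on single small arteries. Without small replicate 3 they fell to 0.28 in medium and 0.18 in large plaques, and without small replicate 1 the large value was 0.99.

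Large plaques were also set directly against medium ones. None of the 36 members was called, the lowest adjusted p was 0.953, and 2 members had an unadjusted p under 0.05 (IFI44L and IRF9). Of all probes 0% were called, the lowest adjusted p was 0.0628, and 5.04% had an unadjusted p under 0.05. The median difference of the members was -0.01. A gene called in medium and not in large plaques is therefore not shown to differ between them.

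The largest difference belonged to IFI30, the interferon gamma-inducible thiol reductase of the lysosome, which is known for its part in class II rather than class I presentation. Its intensity was 12.9, 4.97, 7.83 and 11.1 in small plaques. It was 178, 98.6, 136, 206 and 122 in medium plaques. It was 162, 84.7 and 176 in large plaques. Every artery with a medium or large plaque lay above every artery with a small one, while medium and large overlapped. The difference was 4.05 ± 0.33 in medium against small, or 16.6-fold (limma, adjusted p = 0.000138), and 3.96 ± 0.37 in large against small, or 15.5-fold (limma, adjusted p = 0.00092). Both calls held in every alternative that was run.

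**Figure D2:**
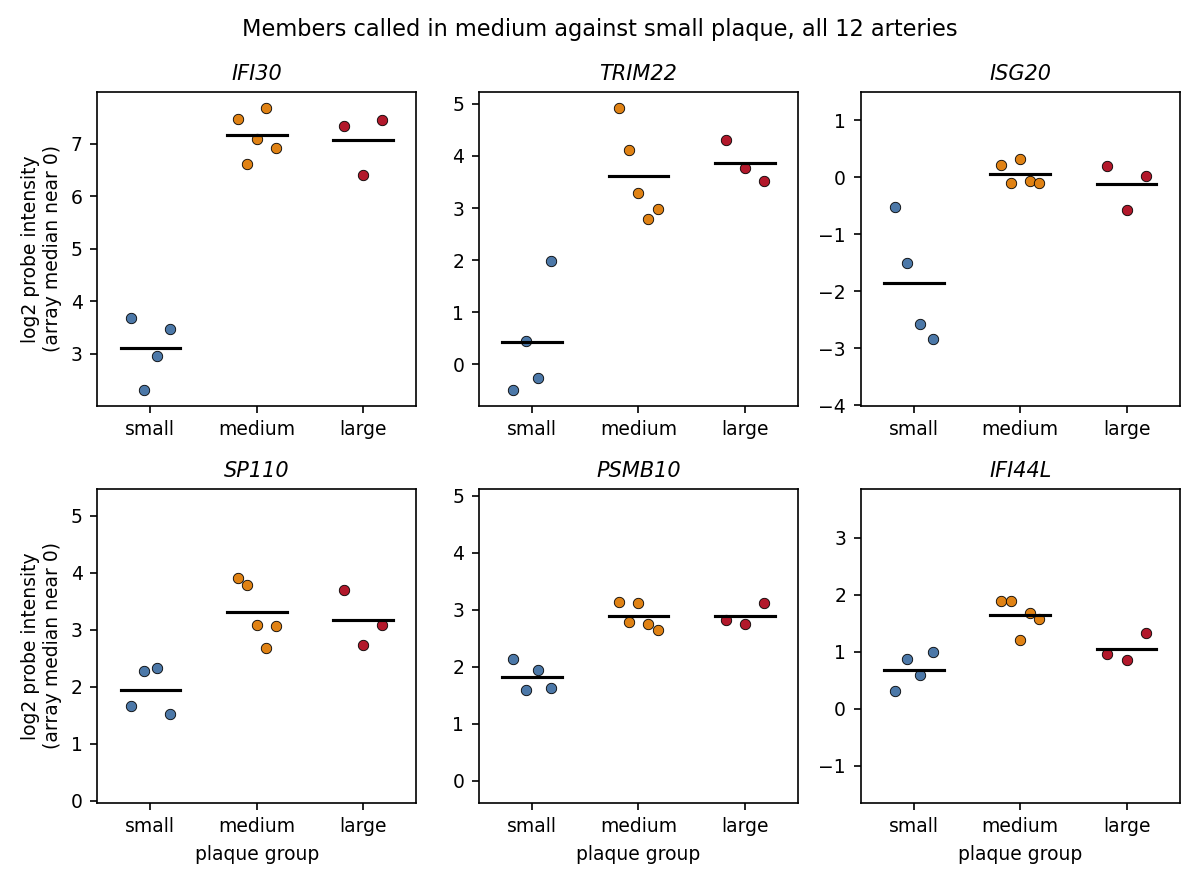
Log2 intensity of each called member in the 12 arteries by plaque group, 1 point per animal with the group mean as a bar. IFI30 and TRIM22 lie apart from the small group in both medium and large plaques, while IFI44L clears the small group in medium plaques and overlaps it in large ones.

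Among the antiviral effectors TRIM22, an interferon-induced ubiquitin ligase that restricts viral transcription, had the largest difference. It measured 0.708, 1.36, 0.835 and 3.95 in small plaques. It measured 30.5, 17.4, 9.80, 6.89 and 7.91 in medium plaques, and 19.8, 13.6 and 11.5 in large plaques. The 3.95 of small replicate 4, an artery without plaque, was the highest small value and still below all others. TRIM22 rose by 3.20 ± 0.53 in medium (limma, adjusted p = 0.00823) and by 3.44 ± 0.60 in large against small plaques (limma, adjusted p = 0.0195). The call in large plaques was lost without large replicate 1 (limma, adjusted p = 0.115), large replicate 3 (0.0776) or small replicate 2 (0.0562).

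ISG20, an exonuclease that degrades viral RNA, was dim. Its intensity was 0.693, 0.352, 0.167 and 0.140 in small plaques, 1.16, 0.932, 1.25, 0.955 and 0.933 in medium plaques, and 1.15, 0.669 and 1.01 in large plaques. All medium arteries lay above all small ones, and 1 large artery fell within the small range. ISG20 rose by 1.91 ± 0.40 in medium plaques (limma, adjusted p = 0.0236), a call lost without medium replicate 1 (0.0574), medium replicate 4 (0.0501), small replicate 3 (0.0575) or small replicate 4 (0.0503). In large against small plaques the difference was 1.74 ± 0.45 and was not called (limma, adjusted p = 0.0839).

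SP110, a nuclear body protein induced by interferons, measured 3.16, 4.84, 5.03 and 2.88 in small, 14.9, 13.8, 8.5, 6.42 and 8.33 in medium, and 13.0, 6.65 and 8.45 in large plaques. Medium and large both lay wholly above small. SP110 rose by 1.35 ± 0.30 in medium plaques (limma, adjusted p = 0.0323), and the difference of 1.22 ± 0.34 in large plaques was not called (limma, adjusted p = 0.107). Leaving out medium replicate 1, 2 or 5, or small replicate 1, 2 or 4, took the medium call to adjusted p-values of 0.0543 to 0.0762.

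IFI44L, an interferon-induced gene that is part of many blood interferon scores, was called in medium plaques alone. It measured 1.24, 1.82, 1.51 and 1.99 in small, 3.70, 3.73, 2.32, 3.19 and 2.98 in medium, and 1.95, 1.80 and 2.53 in large plaques. The medium arteries stood above all small ones, and 2 of the 3 large arteries lay within the small range. IFI44L rose by 0.96 ± 0.20 in medium against small plaques (limma, adjusted p = 0.0253), and the call was lost on leaving out any of 7 of the 9 small and medium animals (adjusted p-values of 0.0505 to 0.0644). In large against small plaques the difference was 0.36 ± 0.23 (limma, adjusted p = 0.477), and in large against medium it was -0.60 ± 0.22 (limma, adjusted p = 0.953).

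Its neighbour in the macaque annotation, IFI44, measured 9.23, 18.4, 2.48 and 7.69 in small, 27.2, 31.5, 14.2, 13.6 and 14.7 in medium, and 11.5, 11.0 and 13.4 in large plaques. Small replicate 3 was low and 1 small artery lay within the medium range. The difference in medium against small plaques was 1.33 ± 0.47 (limma, adjusted p = 0.159), and 0.79 without small replicate 3 (adjusted p = 0.234). All large values lay below all medium ones, at -0.67 ± 0.52 (limma, adjusted p = 0.962). IFIT1, which binds viral RNA lacking a host cap, at -0.81 ± 0.39, and USP18, the protease that removes ISG15, at -0.32 ± 0.19, were the other members lower in every large than in every medium artery. Such full separation was seen for 2.93% of all probes in that direction and 2.53% in the other. Among the 18080 named genes it was seen for 590 and 447.

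None of the double-stranded RNA sensors or IFIT genes was called. OAS1, which makes the messenger that activates RNase L, measured 2.54 to 3.32 in medium plaques, against 1.93 to 2.48 in small plaques, without overlap. Its difference was 0.40 ± 0.15 (limma, adjusted p = 0.19). Medium arteries stood wholly above small ones for 7 members, OAS1 and the 6 called genes, against 3.94% of all probes. None separated in the other direction, against 4.34%. Among the 18080 named genes 1159 stood wholly above and 855 wholly below. OAS2, OAS3 and EIF2AK2, the kinase PKR that stops translation, differed by 0.25, -0.03 and -0.16 in medium plaques. Their 95% confidence intervals together spanned -0.57 to 0.60, with OAS2 read by its brighter probe. IFIT2 and IFIT3 lay near the floor, at no more than 0.398 on any array, and each had values under it. IFIT2 differed by -0.12 ± 0.35 and IFIT3 by 0.54 ± 0.39 in medium plaques, with a 95% confidence interval of -0.31 to 1.39 for IFIT3.

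MX1, a GTPase that blocks influenza and other viruses, was the member with the most negative difference. It measured 0.622, 0.473, 0.808 and 0.962 in small, 0.158, 0.340, 0.720, 0.268 and 0.299 in medium, and 0.155, 0.439 and 0.160 in large plaques. The large arteries lay wholly below the small ones, and medium replicate 3 overlapped the small range. The difference was -1.14 ± 0.43 in medium (limma, adjusted p = 0.182) and -1.64 ± 0.49 in large against small plaques (limma, adjusted p = 0.125). All values were below the median of the array, where background takes a larger share of the signal. MX2, its neighbour in the macaque annotation, measured 2.43 to 3.47 on all arrays and differed by -0.02 ± 0.15 and -0.10 ± 0.17. BST2, which tethers budding virus, differed by 0.96 ± 0.39 in medium plaques and was not called (limma, adjusted p = 0.211). Its values ran from 0.0975 to 0.562, also all below the array median, with 1 small artery under the floor.

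Of the IFITM proteins, which block virus entry at membranes, IFITM3 measured 54.3 to 56.8 in the 3 large arteries, against 29.1 to 53.0 in the small ones. The medium arteries ran from 21.3 to 72.5 and covered both ranges. Its difference in large against small plaques was 0.55 ± 0.37 (limma, adjusted p = 0.501). IFITM1 was highest in small replicate 1, at 22.7, against 5.09 to 7.99 in the other small arteries and 6.18 to 13.6 in the other 8.

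IRF9, the DNA-binding part of the type I transcription complex, measured 2.5, 1.53, 2.17 and 1.24 in small, 3.43, 2.91, 3.09, 1.84 and 2.30 in medium, and 4.72, 3.08 and 4.72 in large plaques. The large arteries lay wholly above the small ones, and medium overlapped both. The difference was 0.56 ± 0.26 in medium (limma, adjusted p = 0.268) and 1.19 ± 0.29 in large against small plaques (limma, adjusted p = 0.0712). Without small replicate 1 the large difference was 1.35 and called (limma, adjusted p = 0.0424). Large arteries stood wholly above small ones for 7 members, TRIM22, IFITM3, IRF9, SP110, PSMB8, PSMB10 and IFI30, against 5.99% of all probes. They stood below for 1, MX1, against 8.52%. Among the 18080 named genes 1703 stood wholly above and 1616 wholly below. IRF7, which drives later waves of type I interferon, did not exceed 0.411 on any array.

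Within the immunoproteasome, PSMB10 replaces PSMB7, PSMB9 replaces PSMB6 and PSMB8 replaces PSMB5 in the catalytic core. PSMB10 measured 4.38, 3.02, 3.86 and 3.11 in small, 8.80, 6.88, 8.68, 6.77 and 6.23 in medium, and 7.09, 6.75 and 8.70 in large plaques. All medium and large arteries stood above all small ones. It rose by 1.06 ± 0.18 in medium (limma, adjusted p = 0.00873) and by 1.07 ± 0.20 in large against small plaques (limma, adjusted p = 0.0272). The large call was lost without large replicate 1 (limma, adjusted p = 0.114), large replicate 3 (0.139), small replicate 2 (0.0839) or small replicate 4 (0.0585). These values are of the brighter PSMB10 probe. The dimmer one differed by -0.23 in medium and -0.19 in large against small plaques, without a call.

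PSMB9 measured 37.7, 11.3, 9.19 and 14.6 in small, 22.9, 24.0, 40.6, 28 and 33.2 in medium, and 24.8, 19.9 and 24.4 in large plaques. Small replicate 1 lay within the medium range and the other 3 small arteries lay below all others. The difference in medium against small plaques was 0.91 ± 0.35 and not called (limma, adjusted p = 0.192). Without small replicate 1 it was 1.34 and called (limma, adjusted p = 0.0128). PSMB8 was dim, at 0.238 to 0.399 in small, 0.363 to 0.735 in medium and 0.629 to 0.731 in large plaques, and differed by 0.66 ± 0.24 (adjusted p = 0.16) and 1.06 ± 0.27 (adjusted p = 0.0802). The replaced subunits PSMB5, PSMB6 and PSMB7 differed by -1.35 ± 0.34, -0.61 ± 0.27 and 0.14 ± 0.20 in medium plaques. None of the 7 constitutive beta subunits was called, and PSMB5 came nearest (limma, adjusted p = 0.0515).

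TAP1, the first chain of the peptide transporter and the neighbour of PSMB9 in the macaque annotation, had the same high small artery. It measured 1.01, 0.230, 0.248 and 0.512 in small, 0.901, 0.724, 0.723, 0.472 and 1.11 in medium, and 1.21, 0.940 and 0.851 in large plaques. The groups overlapped in every pair. The difference in large against small plaques was 1.26 ± 0.46 (limma, adjusted p = 0.206), and without small replicate 1 it was 1.69 and called (limma, adjusted p = 0.039).

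The loading and surface parts gave little signal. TAPBP, which links the transporter to empty class I molecules, differed by -0.35 ± 0.41, with a 95% confidence interval of -1.23 to 0.53, in medium against small plaques. B2M, the light chain of class I, measured only 0.173 to 0.577 over the 12 arteries and differed by -0.04 ± 0.38. Its 95% confidence interval of -0.87 to 0.79 left room for a change of either sign. B2M is known as an abundant transcript of nearly all cells, and its probe lay below the array median on every array. Of the 8 measured class I heavy chain and related genes HLA-F rose in medium plaques, at 84.8 to 206, against 36.8 to 63.7 in small plaques (1.33 ± 0.28, limma, adjusted p = 0.0247). HLA genes are close relatives, so its probe may bind more than 1 of them. None of the 7 measured chaperone and trimming genes was called.

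Of the type II genes, GBP1, a guanylate binding protein that attacks pathogen vacuoles, measured 25.3, 12.5, 4.78 and 19.0 in small, 27.3, 27.9, 30.8, 14.3 and 15.8 in medium, and 29.9, 20.0 and 14.8 in large plaques. The groups overlapped, with small replicate 3 the lowest, and the difference in medium against small was 0.76 ± 0.44 (limma, adjusted p = 0.391). It was 0.28 without small replicate 3 and 1.08 without small replicate 1, and not called in either case. GBP2 differed by 0.12 ± 0.19 and IRF1, the first transcription factor of the interferon gamma response, by 0.17 ± 0.27. IFI16, a DNA sensor, did not exceed 0.342 on any array. IFI30 was therefore the single called gene among the 5 type II members.

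Of the measured members, 7 had a second probe, and for some the probes differed. The brighter RSAD2 probe, for viperin, an enzyme that makes a chain terminator of viral RNA synthesis, differed by -0.11 ± 0.19 in medium against small plaques. Its dimmer probe measured 2.49 to 3.93 in medium and 1.68 to 2.10 in small plaques and rose by 0.74 ± 0.18 (limma, adjusted p = 0.0431). In large plaques it measured 2.11 to 3.11, wholly above small, at 0.48 without a call (limma, adjusted p = 0.27). For PSMB10 the reverse was seen, since the dimmer probe differed by -0.23 in medium and -0.19 in large against small plaques and was not called. The dimmer GBP2 probe differed by 0.76 (limma, adjusted p = 0.105) and the dimmer IRF1 probe by 0.63. In large plaques the dimmer IRF1 probe measured 0.707 to 0.972, against 0.242 to 0.652 in small plaques, at 0.79 without a call. The 2 probes of IFI27, IFITM1 and OAS2 were called in no comparison, but they differed in sign. In medium against small plaques the dimmer OAS2 probe differed by -0.55 ± 0.39, against 0.25 for the brighter. The dimmer IFITM1 probe differed by -0.18 ± 0.34, against 0.18. For IFI27 the dimmer probe differed by -0.32 ± 0.20 in large against small plaques, against 0.15 for the brighter. Which probe follows the transcript in the monkey was not tested.

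**Figure D3:**
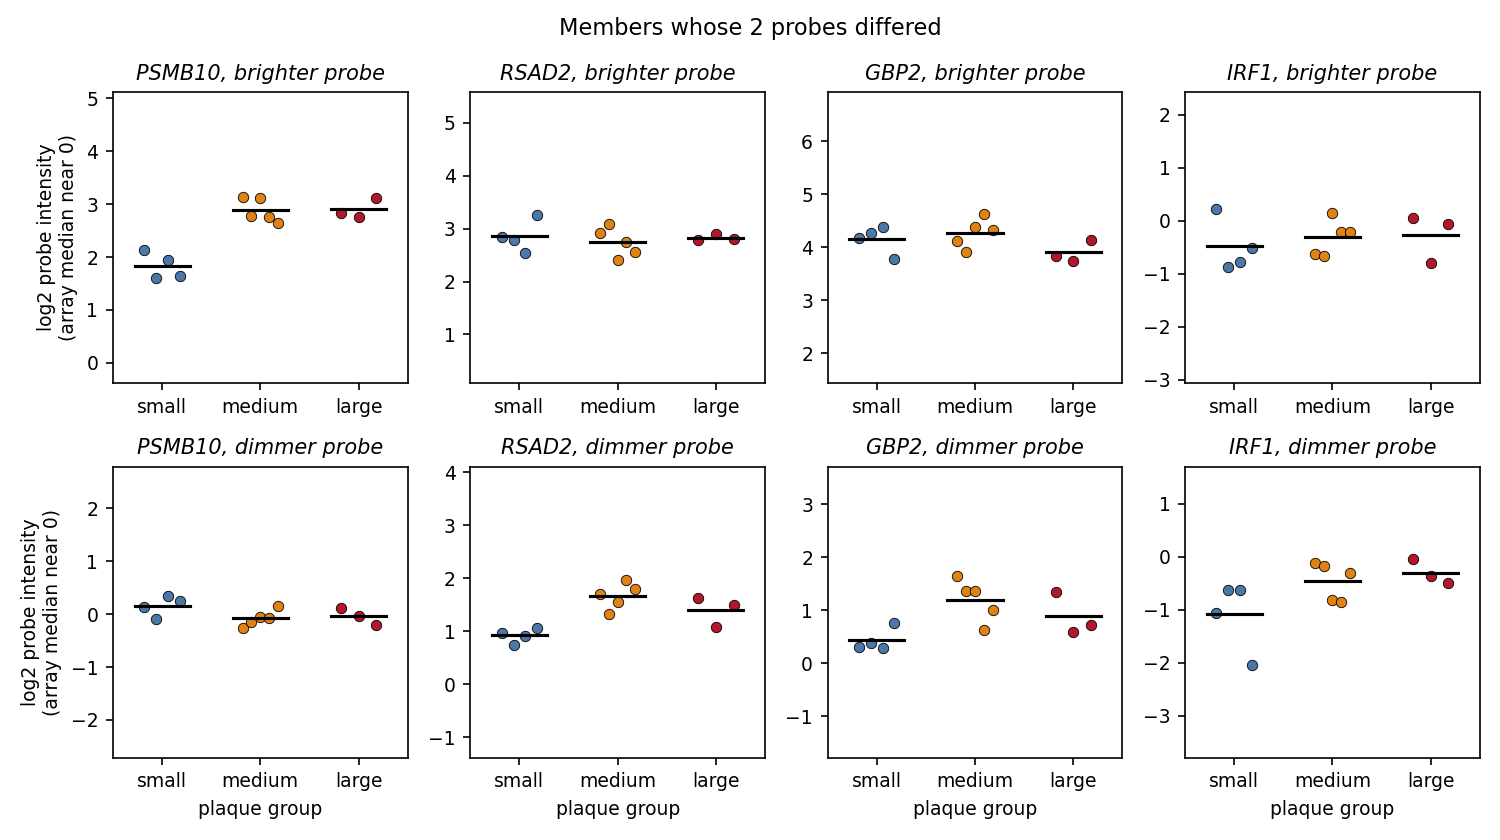
Log2 intensity of the brighter (upper) and dimmer (lower) probe of PSMB10, RSAD2, GBP2 and IRF1 in the 12 arteries by plaque group, with the group mean as a bar. PSMB10 separates medium and large from small plaques by its brighter probe alone, and RSAD2 does so by its dimmer probe alone. The dimmer IRF1 probe separates large from small, and the GBP2 probes overlap.

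Plaque area was also used as a number for each animal. The slope of IFI30 was 5.11 ± 0.95 per mm2 (limma, adjusted p = 0.0379), the single slope called among the 36 members, while 0.583% of all probes had a called slope, 0.483% upward and 0.1% downward. Of the named genes 0.951% had a called slope upward and 0.127% downward. The IFI30 slope lost the call on leaving out any of 7 animals (large replicate 2 or 3, medium replicate 5 or any small animal). Without both animals that had no plaque it was 4.12 (limma, adjusted p = 0.377). IRF9 had a slope of 1.43 ± 0.33 (limma, adjusted p = 0.0679) and MX1 of -2.27 ± 0.49 (limma, adjusted p = 0.0582). A slope does not separate a graded change from a step between small and larger plaques. For IFI30 the 8 arteries from 0.30 mm2 upward ran from 84.7 to 206, with the lowest at 0.61 mm2.

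**Figure D4:**
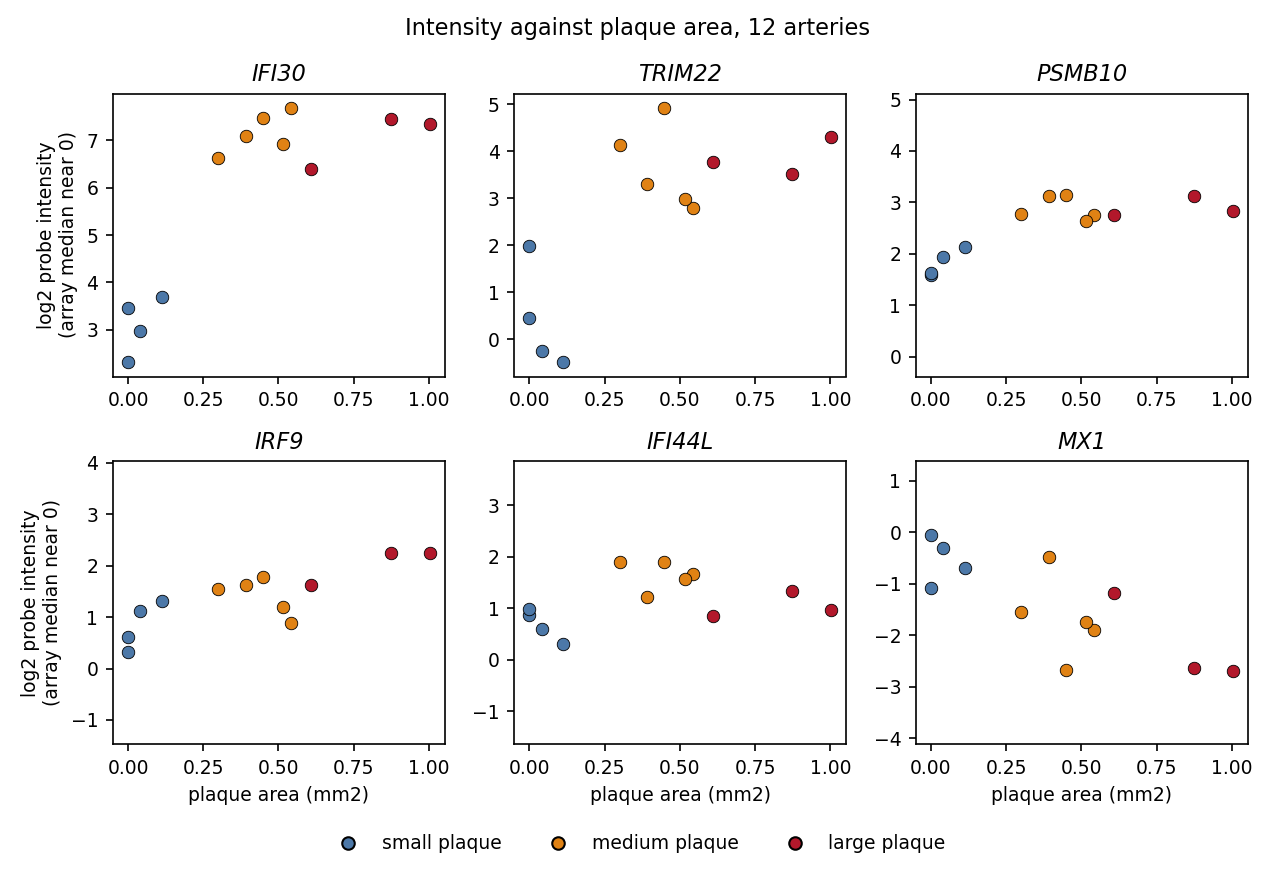
Log2 intensity of 6 members against plaque area in mm2, 1 point per artery, coloured by plaque group. IFI30, TRIM22 and PSMB10 are high in all 8 arteries from 0.30 mm2 upward, IRF9 is highest in the 2 arteries with the largest plaques, and MX1 lies wholly lower in large than in small plaques.

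The interferons and their receptors were read from lists of 133 further pathway genes, of which 117 were measured. Of these 16 rose and none fell in medium against small plaques, with a median of 0.14 and 70 positive, where 3.14% of all probes were called and 3.6% of named genes rose. In large against small plaques 10 rose and none fell, where 1.15% of all probes were called and 1.91% of named genes rose. The large count was 2 without large replicate 1 or 3, and 5 without small replicate 2. In large against medium plaques 0 of the 117 were called. None of the 14 measured interferon genes was called. IFNG measured 0.414 to 0.536 in medium, against 0.290 to 0.725 in small plaques, and differed by 0.12 ± 0.23. These IFNG values lay below the array median, where background takes a larger share of the signal. IFNB1 differed by 0.26 ± 0.28.

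Of the 6 receptor chains 2 rose. IFNGR2, the signalling chain of the interferon gamma receptor, measured 1.22, 1.48, 1.42 and 0.968 in small, 15.2, 9.43, 4.69, 3.83 and 3.85 in medium, and 18.1, 5.90 and 9.13 in large plaques. Every medium and large artery lay above every small one. It rose by 2.33 ± 0.43 in medium (limma, adjusted p = 0.0148) and 2.98 ± 0.49 in large against small plaques (limma, adjusted p = 0.0146). IL10RB, shared by the receptors for interleukin 10 and the type III interferons, rose by 1.83 ± 0.26 and 1.38 ± 0.29 (adjusted p = 0.00316 and 0.0467). The ligand-binding chain IFNGR1 differed by 0.03 ± 0.28, IFNAR1 by 0.28 ± 0.23 and IFNAR2 by 0.47 ± 0.31 in medium plaques, and none was called.

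**Figure D5:**
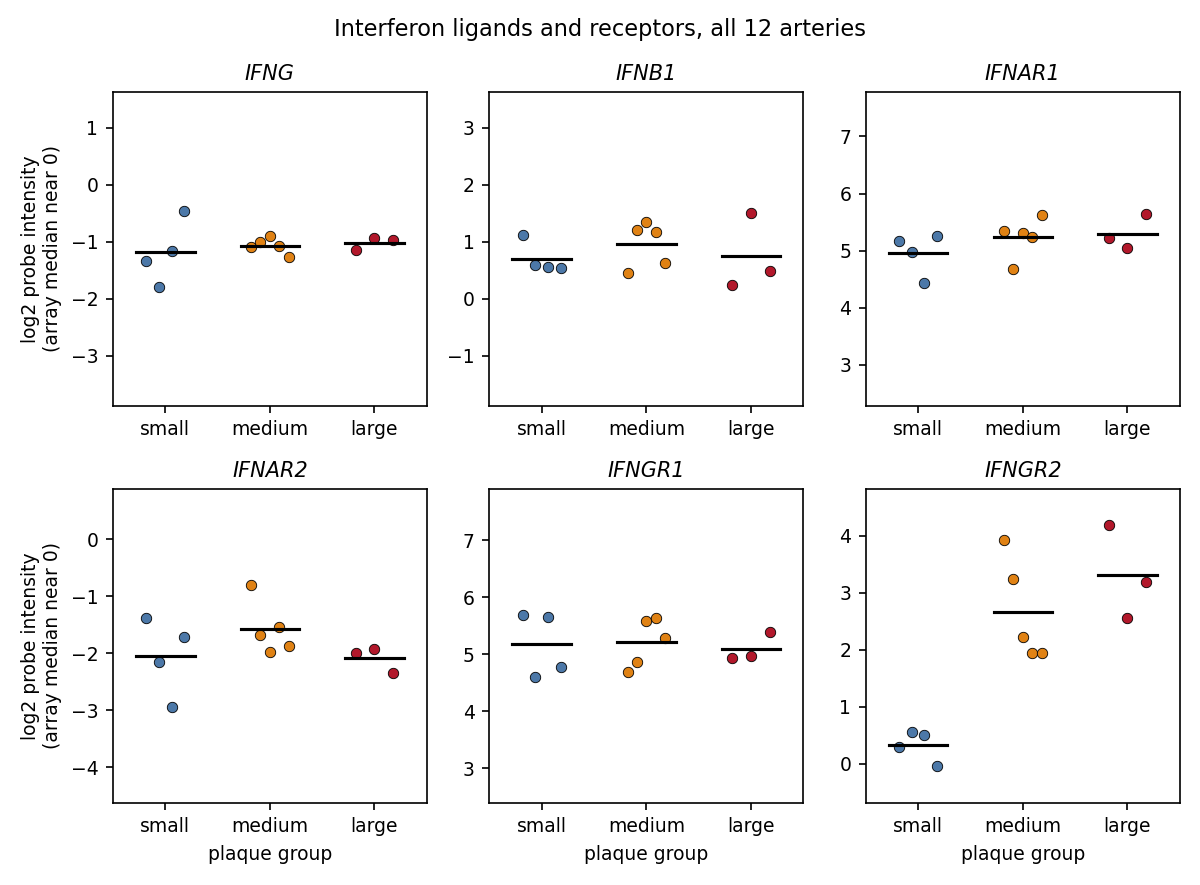
Log2 intensity of IFNG, IFNB1, IFNAR1, IFNAR2, IFNGR1 and IFNGR2 in the 12 arteries by plaque group, 1 point per animal with the group mean as a bar. IFNGR2 lies higher in all medium and large than in all small arteries, while the groups overlap for the other genes.

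Of the receptor kinases, JAK1 and JAK2 differed by -0.09 ± 0.29 and -0.12 ± 0.24 in medium plaques, and TYK2 by 1.37 ± 0.42 in large against small plaques without a call (limma, adjusted p = 0.133). Among the 14 sensors TLR8, the endosomal receptor for single-stranded RNA, rose by 2.05 ± 0.25 in medium and 1.72 ± 0.28 in large plaques. Of 7 kinases and further IRFs, 2 rose in medium and 3 in large against small plaques. IKBKE rose by 1.75 ± 0.26 and IRF8, a factor of myeloid cells and interferon gamma targets, by 2.35 ± 0.24 in medium plaques. IRF3, which starts interferon beta transcription, rose by 1.92 ± 0.35 in large against small plaques. Of 9 inhibitors, the phosphatases PTPN6 and PTPN2 rose in medium plaques, by 2.84 ± 0.28 and 1.46 ± 0.34, while SOCS1 differed by -0.47 ± 0.17 and was not called. In large against small plaques 1 of the 9 inhibitors rose.

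Of 29 further type I induced genes 7 rose in medium plaques: HERC6, EPSTI1, PARP12, SAMHD1, TRIM5, SP100 and UBE2L6. PARP12 and TRIM5 rose in large plaques as well, by 2.30 ± 0.40 and 2.54 ± 0.44. TRIM5, the capsid-binding restriction factor, lies beside TRIM22 in the macaque annotation, and its slope on plaque area was 3.33 ± 0.43 per mm2 (limma, adjusted p = 0.0171). HERC6 measured 3.88 to 5.77 in medium, against 0.991 to 1.92 in small plaques, and rose by 1.74 ± 0.27. The 3 large arteries measured 1.5 to 3.30, all below the medium ones, at -1.0 ± 0.30 without a call (limma, adjusted p = 0.83). Of 13 further type II genes FCGR1A, the high-affinity IgG receptor of macrophages, rose by 3.21 ± 0.43 in medium plaques. In large against small plaques 1 of these 13 rose. The interferon gamma chemokines CXCL9 and CXCL10 differed by 0.00 ± 0.19 and -0.14 ± 0.20, and NLRC5, the activator of class I genes, by -0.28 ± 0.22.

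Some markers of other cells moved with these genes. Of 13 measured macrophage markers 8 rose in medium and 7 in large against small plaques, and their summed intensity was 91.2 to 138.6 in small, 283.9 to 612.6 in medium and 311.0 to 462.7 in large plaques. TYROBP rose by 3.11 ± 0.29 and CD163 by 2.68 ± 0.36 in medium plaques, while CD68 differed by -0.44 ± 0.45 and VSIG4 by -1.30 ± 0.48 without a call. Both CD68 and VSIG4 were wholly lower in large than in small plaques, at -0.66 ± 0.51 and -1.61 ± 0.54, and not called there. Of 11 T and NK cell markers GZMA alone was called in medium plaques, at 2.53 ± 0.45. The list had a median of 0.26, CD3D differed by 1.53 ± 0.40 and CD8A by -0.07 ± 0.27, and the sum was 17.1 to 34.8 in small, 30.3 to 51.4 in medium and 25.6 to 42.0 in large plaques. Of 5 plasmacytoid dendritic cell markers LILRA4 rose in medium plaques, by 2.71 ± 0.53, while CLEC4C differed by 0.18 ± 0.38. The sum of these 5 was 138.0 to 210.2 in small, 154.4 to 201.4 in medium and 138.6 to 150.1 in large plaques, nearly all of it from TCF4, and so does not show the LILRA4 rise. LILRA4 measured 0.749 to 1.10 in small, 3.31 to 14.2 in medium and 1.99 to 14.6 in large plaques. Of 6 smooth muscle markers 2 fell in medium and 1 fell in large plaques. Of 7 endothelial markers ESAM fell in medium plaques, by 1.41 on the log2 scale (limma, adjusted p = 0.0199), and was wholly lower than small in large plaques as well. PECAM1 and TEK differed by -0.10 ± 0.16 and 0.24 ± 0.21 in medium plaques without a call, and the list median was -0.20. The endothelial sum was 156.8 to 214.8 in small, 67.8 to 110.9 in medium and 86.1 to 119.2 in large plaques. The fall in this sum came mainly from ESAM. That gene measured 121 to 182 in small, 36.6 to 83.9 in medium and 57.4 to 93.0 in large plaques. PECAM1, the next brightest marker, measured 19.8 to 30.3 over the arrays. The part of these cell types in the differences of the members was not tested.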

How the data were processed

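Per the labels' protocols, biotinylated cRNA made from artery RNA was bound to CodeLink human arrays and read in 1 colour. The authors deposited linear probe intensities, with array medians close to 1. Some lie below 0, so background had been subtracted. How images were read, background removed and arrays scaled is not stated in the sources used here. Of 54359 probes 479 were empty, and 53877 were tested, those with 2 or more values in each group. Values under the 5th percentile of positive values (0.111), which were 5.45% of all, were set to it before log2, with no further normalization. A value raised to the floor shrinks a difference if it lies in the lower group, and widens it if in the higher. Gene names came from the platform annotation, which can be old. The macaque assembly T2T-MFA8v1.1 gave neighbouring genes and placed 38 of the 41 members.

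Each probe was tested with limma 3.58.1 in R 4.3.3 (lmFit and eBayes, 3 group means, all 12 arrays). P-values are two-sided and adjusted by Benjamini-Hochberg over 53877 probes. A second fit gave the slope per mm2. The fits were tested on simulated data. All members could be named, with pathway genes called in any test and a set of pathway and marker genes listed by name. CNN1, VSIG4, TCF4, ESAM and TEK were outside that set and were named after their values were seen. Members and lists were chosen with earlier results of these data known, so no list was given a p. Alternatives covered the normalization, floor, filters, choice of probe, variance model, array weights, threshold, samples in the fit, scale of area, a block for replicate number, and leaving out each animal. The labels give no batch. The number of arrays limits the precision.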

Additional observations from a re-analysis of the deposited data

How the results depend on the processing

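IFI30 in both comparisons with small plaques and TRIM22 in medium against small plaques kept their calls in all alternatives run, and the other 7 of the 10 called member results lost theirs in at least 1. Over 144 member results and 3492 alternative values, 56 lost a call, 21 gained one and 184 had the opposite sign to the value reported. In 1 of these the value of opposite sign was called, namely RSAD2 in medium against small plaques, at 0.74 (limma, adjusted p = 0.0431), against -0.11 without a call, by its probe of highest variance, which is its dimmer probe. PSMB10 in medium plaques lost its call when the probes of a gene were averaged (0.41, limma, adjusted p = 0.0842). The cause of the other losses was not tested.

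In medium against small plaques the 6 called members became 3 at a threshold of 0.01 and also 3 with small replicate 4 and medium replicate 5 left out. Leaving out 1 animal gave 3 to 6. In large against small plaques the 3 became 5 with array weights and 1 at a threshold of 0.01, and leaving out 1 animal gave 1 to 6. In large against medium plaques the count was 0 in all alternatives. The 1 called slope became 0 with the floor at the 1st percentile, 2 with it at the 10th, 3 with probes averaged and 3 with trended robust variance. It became 0 at a threshold of 0.01, 0 without small replicate 4 and medium replicate 5, 0 without both animals that had no plaque and 5 on the square root of area, and leaving out 1 animal gave 0 to 2.

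For the pathway genes, whose alternatives were added after seeing the data, the 16 in medium plaques became 10 at a threshold of 0.01, with 11 to 17 when 1 animal was left out. The 10 in large plaques became 2 at a threshold of 0.01, 6 with only the groups compared and 6 without small replicate 4 and medium replicate 5, with 2 to 13 when 1 animal was left out. The 3 slopes became 5 with quantile normalization, 1 and 6 with the floor at the 1st and 10th percentile, 10 with probes averaged, 8 with trended robust variance and 14 on the square root of area. They became 0 at a threshold of 0.01, 0 without small replicate 4 and medium replicate 5 and 0 without the animals with no plaque, with 0 to 10 when 1 animal was left out. Arm medians when 1 animal was left out were 0.28 to 0.76 (medium), 0.18 to 0.99 (large) and 0.40 to 1.06 (slope) for presentation and type II. For the type I arm they were 0.20 to 0.38, 0.19 to 0.32 and 0.19 to 0.53, and its slope median was 0.067 without the animals with no plaque.

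Replicate numbers recur between groups, and the labels give no batch. Over 10 same-number pairs the correlation of deviations ran from -0.16 to 0.22, with 4 over 0.1. Only the pair of medium and small replicate 4 was below 0. Over the other 37 pairs it ran from -0.20 to 0.23. These ranges overlap, and whether animals of the same number share an effect was not tested. With the replicate block the called members were 3 in medium and 1 in large against small plaques, 0 in large against medium and 0 for the slope. The block gave 11, 8, 0 and 0 pathway genes, presentation medians of 0.73, 0.55, -0.01 and 0.72 and type I medians of 0.28, 0.21, -0.12 and 0.31, in the same order. Dim probes limit what could be seen, since 14 of 36 members had a median below the array median.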
